A study of Mus musculus with 12 samples.

Results

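The response of TNFR2-/- oligodendrocyte precursor cells (OPCs) to inflammatory cytokines was measured by RNA sequencing in 6 of the 12 libraries of the study, 3 from non-stimulated (NS) and 3 from stimulated (St) cells. Each of cultures 2, 4 and 5 gave 1 NS and 1 St library, which were joined by gene symbol and paired by culture number. FPKM, by its name fragments scaled by gene length and library size, had to average 0.1 or more over these 6 libraries for a gene to be tested. This left 18084 of 45563 symbols. The gene divisor of the deposited values did not follow exon length (Spearman 0.00974 over 16010 genes), so FPKM thresholds are not length-scaled levels here. OPCs came from the cortex of pups labelled TNFR2 KO, a germline line, with C57BL/6 as the labelled strain, so that NS and St cells shared this genotype. Pups were of postnatal days 2 to 5 by the sample labels and 3 to 5 by the methods, and the number of pups in a culture was not given in the sources used here. Cells bound by beads against PDGFRα were kept for 3 days in vitro with PDGF-AA and FGF2. Stimulation was with TNF, IFNγ and IL1β at 25 ng/mL each for 3 h, and NS cells received PBS. The other 6 libraries came from 3 wild type (WT) cultures labelled C57BL/6 (C57BL/6J by the methods), handled in the same way, entered the same model, and are compared at the end.

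OPCs are the dividing progenitors of myelin-forming oligodendrocytes and remain spread through the adult brain. TNF acts through TNFR1, present on nearly all cells, and through TNFR2, present on fewer, and both TNFR1 and the IL1 receptor free NF-kB factors from their inhibitors. IFNγ acts through JAK kinases and STAT factors, which bind GAS elements, and the interferon regulatory factors (IRFs) made next bind interferon-stimulated response elements (ISREs). Many first targets of these pathways encode their own inhibitors, such as IκBα, A20 and the SOCS proteins.

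Levels are given as RPM, read pairs scaled to 1000000 per library, in cultures 2, 4 and 5 in that order, and are compared between libraries only, since they are not scaled to gene length. NS and St values were deposited in separate tables, each scaled by library. Changes are log2 fold changes of FPKM + 0.5 between St and NS libraries of the same culture, with their standard error (SE), which understates the change of genes low in NS libraries. A gene was called where the Benjamini-Hochberg adjusted p of limma was at most 0.05, the change was at least 1.5-fold and the mean was at least 1 FPKM. The 3 cultures were separate, and the model held a term per culture. The p-values therefore measure how far the change within a culture varied from culture to culture. That spread was pooled over the TNFR2-/- and WT cultures and moderated across genes by limma.

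*Tnfrsf1b*, which encodes TNFR2, was at 10.7, 11.4 and 7.02 RPM in NS and 9.39, 11.8 and 10.1 RPM in St libraries. These ranges overlapped, and the change was not called (log2 fold change 0.11 ± 0.18, adjusted p = 0.665). In WT libraries it was at 0.50, 0.446 and 0.801 RPM in NS and 4.82, 2.03 and 3.49 RPM in St cells. Every library labelled TNFR2-/- thus held more reads on the targeted gene than any WT library, and whether these came from an intact transcript was not tested. Genotypes are therefore named below as the labels give them. The libraries held 30102299 to 30335265 read pairs in NS and 28701304 to 30249578 in St cells. All 7 OPC markers were above 1 RPM, and their summed level was 8206 to 8889 RPM in NS and 7090 to 7731 RPM in St libraries. In bulk RNA, fewer cells of a type and less RNA per cell cannot be told apart. Astrocyte markers set culture 5 apart, at 1341, 1210 and 2546 RPM in NS and 1240, 1245 and 2406 RPM in St libraries. Mural and fibroblast markers ran from 809.8 RPM in culture 2 to 206.4 RPM in culture 5 in NS libraries. Of 12 microglia markers only 2 were tested, *P2ry12* among them, *C1qc* and *Trem2* had no read, and their sum was 11 to 11.4 RPM in NS and 10.1 to 10.8 RPM in St libraries. Neuron markers summed to 109.3 to 139.0 RPM in NS and 480.6 to 554.4 RPM in St libraries, where 3 of 8 tested markers rose and 1 fell, and most of the difference was in *Tubb3* (tubulin β3) at 38.4, 70.9 and 46.0 RPM in NS and 418, 465 and 497 RPM in St libraries. *Rbfox3*, the neuronal splicing factor NeuN, was at 3.12, 2.18 and 1.22 RPM in NS and 3.73, 2.41 and 1.43 RPM in St libraries and was not called, *Snap25* (synaptic vesicle fusion) fell by 0.94 on the log2 scale, and *Neurod6* had no read. Endothelial markers summed to 28.6 to 40.8 RPM in NS and 36.1 to 66.3 RPM in St libraries. Of 7 such markers 5 were tested, with *Flt1* and *Ly6c1* called higher. Another 1 was lower at −0.56, not called by limma, and voom on recovered reads called 1 lower. Without the culture pairing *Flt1* was not called (adjusted p = 0.216), nor were the neuron markers *Gad1* (0.333) and *Stmn2* (0.230). Changes also came under 1.5-fold without culture 5 for *Flt1* (0.54) and *Gad1* (0.52) and without culture 2 for *Stmn2* (0.47).

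**Figure D1:**
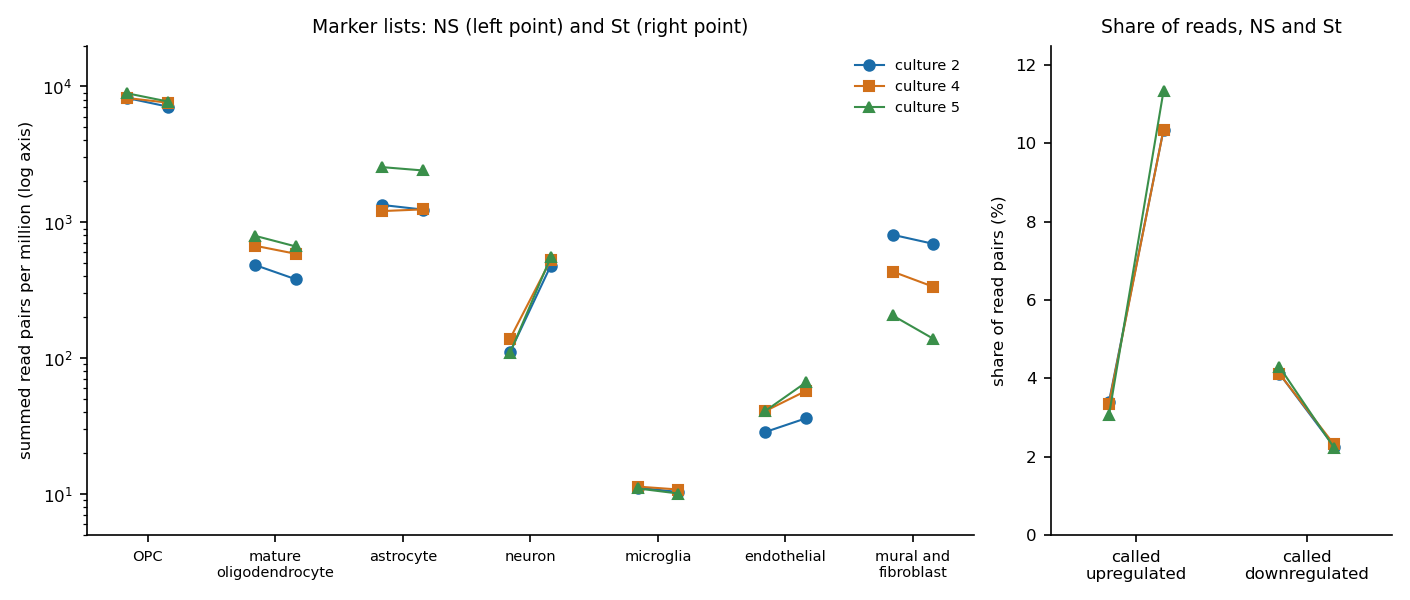
Summed RPM of marker genes of 7 cell types (log axis) and the percent of reads on genes called higher or lower, for each NS and St library of the 3 TNFR2-/- cultures. OPC markers lay between 7090 and 8889 RPM in all 6 libraries, astrocyte markers were highest in culture 5, and genes called higher held 3.06% to 3.40% of NS and 10.35% to 11.3% of St reads.

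After 3 h, 1053 genes rose (5.82% of genes tested) and 1014 fell (5.61%). With libraries scaled by median of ratios in place of library totals, 1232 rose (6.81%) and 690 fell (3.82%), so that 64.1% of calls were higher against 50.9%. The median change of all genes tested was −0.11 as measured and −0.02 with that scaling, and the changes given below include this shift. Among called genes, 687 rose and 281 fell over 2-fold, 334 rose and 23 fell over 4-fold, and 106 rose and 1 fell over 16-fold. All 1053 genes that rose did so in each culture, against 20.1% of all genes tested. For 1007 of them all St libraries lay above all NS libraries, against 12.8% of all genes tested. Of the 1014 that fell, 1011 fell in each culture, against 45.7% of all genes tested, and 871 did not overlap, against 24.7%. The calls were made from these same changes, so the match between cultures is not separate support. Genes that rose held 3.40%, 3.36% and 3.06% of reads in NS and 10.35%, 10.35% and 11.3% in St libraries. The highest rise was in culture 5 for 607 of the 1053 genes, in culture 4 for 253 and in culture 2 for 193, and culture 5 was also the culture with the highest astrocyte markers. Without culture 5, 994 genes rose and 908 fell. Counts of list members called higher or lower below stand against 5.82% and 5.61% of all genes tested. A lack of overlap stands against 12.8% of all genes tested for higher and 24.7% for lower.

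Receptors for the applied cytokines did not move alike. *Tnfrsf1a*, which encodes TNFR1, was at 118, 130.4 and 142 RPM in NS and 270.0, 293 and 254 RPM in St libraries, and all St libraries lay above the NS libraries (log2 fold change 1.06 ± 0.074, adjusted p = 9.08e-05). *Il1r1*, the signaling receptor for IL1β, rose from 18.2, 13.9 and 25.4 RPM to 49.5, 46.6 and 79.1 RPM (log2 fold change 1.55 ± 0.077, adjusted p = 2.59e-05). Of the 2 chains of the IFNγ receptor, *Ifngr2* rose from 42.2, 46.5 and 44.4 RPM to 88.7, 95.6 and 97.8 RPM (log2 fold change 1.08 ± 0.044, adjusted p = 1.14e-05), while *Ifngr1* was at 28.1, 27.3 and 31.0 RPM in NS and 22.9, 20.3 and 23.6 RPM in St libraries, short of the 1.5-fold threshold (log2 fold change −0.37 ± 0.043, adjusted p = 0.000821). In all, 17 of 32 genes of cytokine receptors and proximal signaling rose, all 17 without overlap, with a median over the 32 of 0.97. Among adaptors, *Myd88*, which links the IL1 receptor to NF-kB, rose by 2.57 ± 0.10 and *Ripk1*, a kinase of the TNFR1 complex, by 2.10 ± 0.084. *Birc3*, the ubiquitin ligase cIAP2 of the same complex, was at 0.963, 0.760 and 0.692 RPM in NS and 16, 17.0 and 21.7 RPM in St libraries (log2 fold change 4.42 ± 0.21, adjusted p = 1.95e-05). *Fas* and *Cd40*, death and costimulatory receptors of the TNF family, rose as well, *Fas* from 47.7, 30.5 and 12.6 RPM to 235, 177 and 119.8 RPM and *Cd40* from 0.133, 0.231 and 0.132 RPM to 9.79, 10.6 and 20.1 RPM. Receptor chains for IL6-type cytokines were higher too, with *Osmr* (oncostatin M receptor) at 3.42, *Lifr* at 1.86 and the shared chain *Il6st* at 1.18. *Jak2*, a kinase bound to the IFNγ receptor, rose by 1.67 ± 0.050, whereas *Tyk2* was at 11.4, 11.7 and 16.5 RPM in NS and 12.1, 10.5 and 17.2 RPM in St libraries and was not called.

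NF-kB subunits and their inhibitors rose together, 18 of 25 genes and all 18 without overlap, with a list median of 1.54 against −0.11 for all genes. *Nfkbia* encodes IκBα, which holds NF-kB in the cytoplasm, and was at 41.5, 39.2 and 33.5 RPM in NS and 372, 378 and 384 RPM in St libraries. The 3 St libraries lay within a narrow range far above the NS libraries (log2 fold change 3.27 ± 0.11, adjusted p = 6.49e-06). *Tnfaip3* encodes A20, an enzyme that edits ubiquitin on NF-kB signaling complexes, and rose from 6.28, 6.08 and 6.53 RPM to 117, 112 and 202 RPM (log2 fold change 4.43 ± 0.16, adjusted p = 7.21e-06), with culture 5 highest. *Bcl3*, an IκB family member that acts in the nucleus, went from 0.598, 0.628 and 0.560 RPM to 34.9, 28.6 and 36.9 RPM and had the largest change of the list at 5.44 ± 0.15. Both precursors of the non-canonical and canonical subunits rose, *Nfkb2* by 2.66 ± 0.093 and *Nfkb1* by 2.38 ± 0.15, and so did *Relb* by 2.41 ± 0.075. *Rela*, the main activating subunit, rose least of the subunits, from 70.9, 75.3 and 67.5 RPM to 114, 124 and 113 RPM (log2 fold change 0.71 ± 0.026, adjusted p = 7.66e-06). The upstream kinases *Ikbkb*, *Chuk* and *Map3k7* were not called, with changes of 0.04, −0.04 and 0.02.

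Factors that carry the interferon signal showed some of the largest changes, with 21 of 28 tested STAT, IRF and SOCS genes higher, all 21 without overlap, and a list median of 2.57. *Irf1* was at 12.9, 10.7 and 11.9 RPM in NS and 1169, 1193 and 1314 RPM in St libraries (log2 fold change 6.69 ± 0.13, adjusted p = 9.89e-07). *Irf8*, best known from myeloid cells, was at 1.10, 1.78 and 1.32 RPM in NS and 441, 423 and 571 RPM in St libraries (log2 fold change 7.83 ± 0.13, adjusted p = 9.89e-07). In both genes the 3 St libraries lay close together, and all were far above the NS libraries. *Nlrc5*, the transactivator of MHC class I genes, went from 1.13, 1.68 and 2.24 RPM to 281, 331 and 335 RPM (log2 fold change 7.29 ± 0.14, adjusted p = 9.89e-07). Inhibitors rose in the same libraries: *Socs1*, which blocks JAK kinases at the IFNγ receptor, was at 2.09, 2.81 and 1.81 RPM in NS and 213, 214 and 252 RPM in St libraries, and *Socs3*, which acts on gp130 receptors, was at 31.7, 27.3 and 17.7 RPM in NS and 456, 541 and 519 RPM in St libraries. *Batf2* had at most 0.165 RPM in NS and 51.9, 35.4 and 83.8 RPM in St libraries (log2 fold change 5.17 ± 0.22, adjusted p = 1.28e-05). *Stat6*, the IL4 factor, was the one member called lower, at 0.963, 2.05 and 2.41 RPM in NS and 0.799, 1.19 and 1.05 RPM in St libraries (log2 fold change −0.65 ± 0.16, adjusted p = 0.0185). The *Stat6* call was lost with median-of-ratios scaling (−0.55), with a pseudocount of 1 (−0.57), in the fit without the culture pairing (adjusted p = 0.0867), with TNFR2-/- libraries alone (0.0536) and without culture 4 (0.0745) or 5 (0.0849).

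Promoters of 4 known targets are shown to set these pathways beside their sequences: *Irf1* as a target of IFNγ signaling through GAS elements, *Nfkbia* of NF-kB, *Cxcl10* of both IRFs and NF-kB, and *Psmb9* of IFNγ signaling and IRF1. Each is the 250 bases before the start site in RefSeq on GRCm38.p6, read 5′ to 3′ on the gene's strand, and capitals mark a motif match. The *Irf1* window is chr11:53769764-53770013 on the plus strand, upstream of the first of its 2 start sites. The minus strand holds *Nfkbia* at chr12:55492648-55492897, *Cxcl10* at chr5:92348890-92349139 and *Psmb9* at chr17:34187331-34187580. 
Irf1: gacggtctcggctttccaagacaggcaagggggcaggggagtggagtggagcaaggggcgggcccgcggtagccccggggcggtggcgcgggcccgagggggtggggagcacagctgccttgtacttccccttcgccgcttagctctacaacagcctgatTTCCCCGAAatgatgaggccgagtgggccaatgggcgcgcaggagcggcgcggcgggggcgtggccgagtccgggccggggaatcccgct
Nfkbia: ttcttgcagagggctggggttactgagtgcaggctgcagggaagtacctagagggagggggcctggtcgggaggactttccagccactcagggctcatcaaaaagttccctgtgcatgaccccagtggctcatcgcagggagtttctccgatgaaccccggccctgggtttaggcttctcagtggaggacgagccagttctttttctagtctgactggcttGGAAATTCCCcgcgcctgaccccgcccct
Cxcl10: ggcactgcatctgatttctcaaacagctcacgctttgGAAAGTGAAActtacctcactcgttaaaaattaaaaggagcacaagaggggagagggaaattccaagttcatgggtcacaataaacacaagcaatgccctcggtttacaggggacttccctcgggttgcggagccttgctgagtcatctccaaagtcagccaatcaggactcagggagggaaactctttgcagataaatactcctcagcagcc
Psmb9: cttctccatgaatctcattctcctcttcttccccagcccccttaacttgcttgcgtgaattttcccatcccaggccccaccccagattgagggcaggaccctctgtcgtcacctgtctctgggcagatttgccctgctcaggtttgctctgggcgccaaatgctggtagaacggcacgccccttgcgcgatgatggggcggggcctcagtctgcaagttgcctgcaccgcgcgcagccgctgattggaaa

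Motifs were searched on both strands as TTCNNNGAA (GAS), GAAA and GAAA with any 2 bases between (ISRE), and GGGA and TTTCC with any base between (NF-kB site). The *Irf1* promoter held a GAS match from −90 to −82 relative to the start site, *Nfkbia* an NF-kB match from −29 to −20 and *Cxcl10* an ISRE match from −213 to −204, and no match lay in the *Psmb9* window. Among 734 genes that rose and had a promoter in the table, 9.54% held a GAS match, 7.90% an ISRE match and 1.5% an NF-kB match. Among 732 that fell, these shares were 4.64%, 1.78% and 0.137%, and among 11746 genes tested they were 5.97%, 2.55% and 0.409%. Over all 27025 promoters they were 7.14%, 3.05% and 0.344%. In the 69 genes with a promoter that rose over 16-fold, a group chosen after its values were seen, 24.6% held a GAS, 26.1% an ISRE and 5.80% an NF-kB match. A match describes the letters of the window and no factor was measured there. Only the patterns given were searched, so letters left in lower case may hold looser forms of a site, also in the *Irf1* and *Cxcl10* windows.

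**Figure D2:**
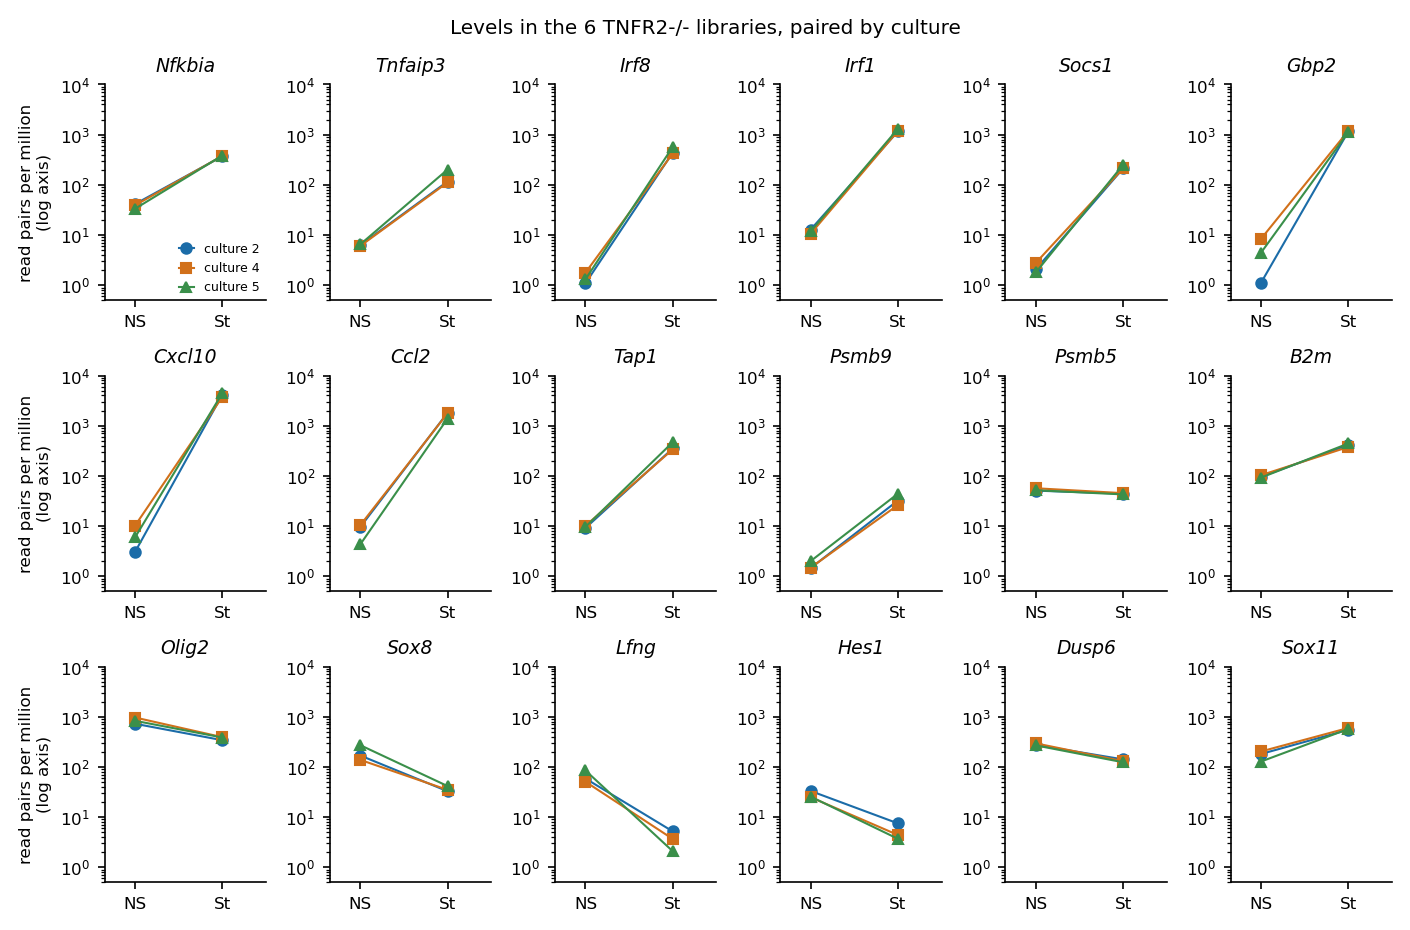
RPM of selected genes (log axis) in the NS and St library of each TNFR2-/- culture, joined by a line per culture. *Irf1*, *Cxcl10* and *Nfkbia* rose in all 3 cultures to close levels, and *Olig2*, *Hes1* and *Lfng* fell in all 3.

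Interferon-inducible GTPases, which attack the membranes around intracellular microbes, moved most as a list. Of 19 tested, 18 rose, all without overlap and 17 of them over 16-fold, and the list median was 7.26. Members of the *Gbp*, *Irg* and *Tgtp* families share sequence, so that reads could be split between them. *Irgm1*, a regulator of the other family members, was at 12.6, 17.7 and 24.2 RPM in NS and 2120.5, 2206 and 2468 RPM in St libraries (log2 fold change 7.01 ± 0.13, adjusted p = 9.89e-07). *Igtp* was at 2.43, 5.58 and 6.63 RPM in NS and 1237, 1241 and 1536 RPM in St libraries (log2 fold change 8.2 ± 0.26, adjusted p = 4.83e-06). *Iigp1* went from 0.332, 2.02 and 1.32 RPM to 968, 896 and 1762 RPM, with culture 5 the highest. Several members were close to absent before stimulation: *Ifi47* was at 0, 0.462 and 0.165 RPM in NS and 214, 197 and 326 RPM in St libraries (log2 fold change 10.62 ± 0.64, adjusted p = 5.36e-05), and *Gm4841* at 0.0332, 0.462 and 0.330 RPM in NS and 318, 283 and 544 RPM in St libraries. *Gbp10* had 3 reads in all NS libraries together, and its ratio of RPM was 1195 (95% interval 408 to 5795, counting error only). *Mx1*, an antiviral GTPase, was the one member not called, at 0, 0 and 0.0330 RPM in NS and 1.87, 0.661 and 2.37 RPM in St libraries. Its rise (log2 fold change 2.12, adjusted p = 0.00103) missed the call only because its mean was under 1 FPKM.

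Antiviral genes and sensors of foreign RNA or DNA rose in 33 of 44 cases, 32 of them without overlap, with a list median of 2.03. *Parp14*, an ADP-ribosyltransferase, had the largest rise, from 2.59, 2.15 and 3.13 RPM to 359, 347 and 582 RPM (log2 fold change 7.03 ± 0.12, adjusted p = 9.89e-07). *Tlr2*, a receptor for bacterial lipoproteins, was at 1.26, 1.16 and 1.02 RPM in NS and 106, 102 and 178 RPM in St libraries (log2 fold change 5.07 ± 0.18, adjusted p = 6.88e-06), while *Tlr4*, the receptor for lipopolysaccharide, was at 4.35, 2.02 and 6.16 RPM in NS and 3.30, 2.35 and 5.82 RPM in St libraries and was not called. *Ddx58*, which encodes the RNA sensor RIG-I, rose from 11.3, 10.2 and 13.9 RPM to 76.3, 70.1 and 103 RPM (log2 fold change 2.78 ± 0.042, adjusted p = 9.89e-07). *Ifit1*, which binds foreign RNA caps, rose from 0.332, 0.297 and 1.38 RPM to 32.4, 27.6 and 63.6 RPM (log2 fold change 4.62 ± 0.085, adjusted p = 9.89e-07). *Oas2*, a 2′-5′ oligoadenylate synthetase, was at 0.133, 0.0330 and 0.0330 RPM in NS and 1.13, 0.694 and 2.30 RPM in St libraries. Its rise (log2 fold change 1.75, adjusted p = 0.00197) was not called only because its mean was under 1 FPKM. The related *Oasl2* reached 31.3, 26.1 and 43.4 RPM (log2 fold change 4.77 ± 0.11, adjusted p = 1.59e-06).

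Chemokines recruit leukocytes, and 14 of 26 tested rose and 1 fell, each without overlap. *Cxcl10*, a ligand of CXCR3 on activated T cells, was at 3.06, 10.2 and 5.97 RPM in NS and 4138, 3747 and 4430.3 RPM in St libraries (log2 fold change 9.34 ± 0.31, adjusted p = 5.47e-06). *Cxcl9*, a ligand of the same receptor, was at 0, 0.396 and 0.363 RPM in NS and 355, 278 and 796 RPM in St libraries (log2 fold change 7.29 ± 0.28, adjusted p = 9.00e-06), and culture 5 was more than 2 times as high as the other St libraries. *Cxcl11*, the third ligand, had 3 reads in the NS libraries together, and its ratio was 806 (95% interval 276 to 3913). *Ccl2*, which attracts monocytes, was at 9.57, 10.4 and 4.32 RPM in NS and 1804, 1763 and 1384 RPM in St libraries (log2 fold change 7.72 ± 0.18, adjusted p = 1.67e-06). *Cxcl1*, which attracts neutrophils, was at 0.432, 2.44 and 1.68 RPM in NS and 509.7, 636 and 549 RPM in St libraries (log2 fold change 8.22 ± 0.23, adjusted p = 3.16e-06), and *Ccl5* went from 0, 0.165 and 0 RPM to 25.0, 28.2 and 47.6 RPM. *Ccl8* had no read in NS and 64, 70 and 225 reads in St libraries, at least 122-fold higher against a floor of 3 reads over the NS libraries. *Cx3cl1* (fractalkine), a ligand for microglia, was already at 301, 294 and 240.2 RPM in NS libraries and rose to 1371, 1293 and 1021 RPM (log2 fold change 2.13 ± 0.031, adjusted p = 9.89e-07). Of those that were lower, *Ccl6* fell by 0.99 on the log2 scale but stayed under 0.3 RPM in every library. The *Ccl6* call was lost without the culture pairing (adjusted p = 0.119), with a pseudocount of 0.1 (0.0682), with voom on recovered reads (0.0730) and without culture 5 (0.0654). *Cxcl14*, at 59.8, 73.0 and 101 RPM in NS and 45.7, 55.6 and 72.0 RPM in St libraries, was short of the 1.5-fold threshold.

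Cytokines and growth factors were less uniform, with 12 of 34 tested higher, all without overlap, and a list median of 0.57. *Lif*, a cytokine that promotes survival of oligodendrocytes, was at 14, 16.4 and 7.88 RPM in NS and 384, 579 and 386 RPM in St libraries (log2 fold change 5.02 ± 0.13, adjusted p = 2.21e-06). *Il6* was at 0.0664, 0.0661 and 0 RPM in NS and 20.7, 23.9 and 51.4 RPM in St libraries (log2 fold change 5.06 ± 0.28, adjusted p = 3.99e-05), and culture 5 was highest. *Csf1*, a growth factor for microglia and macrophages, rose from 108, 73.3 and 124 RPM to 442, 388 and 445 RPM, and *Il33*, an alarmin, from 21.8, 14.2 and 23.7 RPM to 67.4, 45.8 and 109 RPM. *Pdgfb*, a growth factor for mural cells, differed most between cultures, at 16.4, 3.90 and 1.58 RPM in NS and 40.0, 19.4 and 22.1 RPM in St libraries (log2 fold change 2.22 ± 0.35, adjusted p = 0.00286). Of the applied cytokines, *Tnf* was at 0, 0.0330 and 0 RPM in NS and 0.333, 0.496 and 0.662 RPM in St libraries. Its change (log2 fold change 0.61, adjusted p = 0.00555) was not called because its mean was under 1 FPKM. *Il1b*, also applied, had a single read in 1 St library. *Ifnb1* (interferon β), which was not applied, had no read in NS and 7, 11 and 13 reads in St libraries.

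MHC class I molecules show peptides to T cells, and their heavy chains, light chain and peptide transporter all had members that rose. Of 21 MHC class I and peptide loading genes tested, 13 rose without overlap, with a list median of 1.97. *B2m*, the shared light chain, was at 96.4, 103 and 92.7 RPM in NS and 413, 377 and 442 RPM in St libraries (log2 fold change 2.07 ± 0.069, adjusted p = 5.47e-06). The classical heavy chains *H2-K1* and *H2-D1* rose by 1.96 ± 0.094 and 2.85 ± 0.10, and the non-classical *H2-Q4* by 4.89 ± 0.10, with the reservation that H2 genes share sequence. *Tap1*, a subunit of the peptide transporter, was at 9.17, 10.1 and 9.66 RPM in NS and 352, 338 and 469 RPM in St libraries (log2 fold change 5.28 ± 0.16, adjusted p = 4.23e-06). The general chaperones of this pathway *Calr*, *Canx* and *Pdia3* were not called, with changes of −0.11, −0.01 and −0.15.

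All 5 genes of the immunoproteasome, the form that cuts peptides for MHC class I, rose by 1.63 to 3.59. *Psmb8* was at 1.2, 0.925 and 0.989 RPM in NS and 26.8, 25.7 and 33.0 RPM in St libraries (log2 fold change 3.45 ± 0.095, adjusted p = 2.95e-06) and *Psmb9* at 1.46, 1.49 and 2.01 RPM in NS and 32.3, 26.3 and 44.3 RPM in St libraries (log2 fold change 3.59 ± 0.11, adjusted p = 4.23e-06). *Psmb5*, the constitutive subunit that *Psmb8* replaces, was at 50.9, 56.8 and 51.8 RPM in NS and 44.3, 45.3 and 42.8 RPM in St libraries and was not called (log2 fold change −0.26 ± 0.039, adjusted p = 0.00217). No gene of the 14 of the constitutive core was called by limma or by voom on recovered reads, 2 were higher and 5 lower at an unadjusted p under 0.05, which 37% of all genes passed as lower, and their changes ran from −0.26 to 0.13. Their median was −0.08, and 0.03 with median-of-ratios scaling. Of MHC class II, 7 of 11 genes were tested and 1 rose, the transactivator *Ciita*, from 0.166, 0.330 and 0.330 RPM to 11.3, 9.39 and 21.9 RPM (log2 fold change 2.71 ± 0.20, adjusted p = 0.000107). *Cd74*, the invariant chain, was at 0, 0.0661 and 0.0659 RPM in NS and 1.40, 1.19 and 1.64 RPM in St libraries, under 1 FPKM, and *H2-Ab1* at 1.23, 0.925 and 2.27 RPM in NS and 1.63, 1.09 and 2.19 RPM in St libraries.

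Surface and secreted immune regulators rose in 13 of 18 cases, all without overlap, with a list median of 1.39. *Cd274*, the checkpoint ligand PD-L1, was at 0.432, 0.925 and 0.857 RPM in NS and 349.9, 355 and 515 RPM in St libraries (log2 fold change 8.41 ± 0.14, adjusted p = 9.89e-07). *Icam1*, which binds leukocyte integrins, was at 1.73, 3.14 and 5.37 RPM in NS and 159, 182 and 262 RPM in St libraries (log2 fold change 5.97 ± 0.19, adjusted p = 4.83e-06). *Vcam1*, another integrin ligand, was already at 111, 142 and 137 RPM and rose to 432, 448 and 444 RPM (log2 fold change 1.75 ± 0.063, adjusted p = 6.88e-06). *C3*, the central complement protein, rose from 0.266, 0.0991 and 0.0659 RPM to 4.63, 3.77 and 12.4 RPM, and *Serping1*, which encodes C1 inhibitor, from 0.664, 0.363 and 0.593 RPM to 21.7, 16.4 and 20.8 RPM. *Cd80*, a costimulatory ligand, was at 0.199, 0.330 and 0.297 RPM in NS and 0.50, 0.298 and 0.523 RPM in St libraries and was not called, and *Cd86* had no read.

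Among inflammatory enzymes and acute-phase genes, 15 of 20 tested rose, all without overlap, with a list median of 2.12. *Serpina3n*, a protease inhibitor of reactive glia, was at 13.1, 20.5 and 43.9 RPM in NS and 269.6, 324 and 972 RPM in St libraries (log2 fold change 4.27 ± 0.15, adjusted p = 6.17e-06). *Lcn2* (lipocalin 2) was at 0.233, 0.363 and 0.593 RPM in NS and 87.8, 69.4 and 271 RPM in St libraries (log2 fold change 5.71 ± 0.32, adjusted p = 4.00e-05), and *Steap4*, a metal reductase, at 0.199, 0.363 and 0.626 RPM in NS and 126, 98.2 and 241 RPM in St libraries (log2 fold change 5.38 ± 0.24, adjusted p = 1.59e-05). In these 3 genes culture 5 was the highest St library, as it was in astrocyte markers, and the part of those markers was not tested. *Ptgs2* encodes the prostaglandin enzyme COX-2 and was at 23.8, 23.6 and 5.70 RPM in NS and 280.1, 345 and 364 RPM in St libraries (log2 fold change 4.11 ± 0.34, adjusted p = 0.000180). *Nos2*, the inducible nitric oxide synthase, had 2 reads in NS libraries and 6.50, 12.3 and 23 RPM in St libraries, a ratio of 625 (95% interval 173 to 5170.5). *Serpina3f* had no read in the NS library of culture 2 and was at 0, 1.35 and 0.791 RPM in NS and 374, 427 and 503 RPM in St libraries, and *Serpina3* copies share sequence.

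Genes of cell death rose on both the promoting and the protecting side, 14 of 33 tested, with 1 lower and a list median of 0.36. *Casp4*, the mouse sensor caspase for intracellular lipopolysaccharide, was at 0.166, 0.198 and 0.0659 RPM in NS and 29.3, 22.3 and 30.8 RPM in St libraries (log2 fold change 7.09 ± 0.31, adjusted p = 1.53e-05). *Mlkl*, the executor of necroptosis, was at 1.2, 1.42 and 1.02 RPM in NS and 21.7, 21.3 and 20.4 RPM in St libraries (log2 fold change 2.92 ± 0.090, adjusted p = 4.23e-06), while its activating kinase *Ripk3* was at 1.16, 0.793 and 0.692 RPM in NS and 1.30, 1.22 and 1.88 RPM in St libraries and was not called. *Cflar* encodes cFLIP, which blocks caspase 8, and rose from 26.1, 21.0 and 25.2 RPM to 52.7, 47.9 and 74.5 RPM (log2 fold change 1.15 ± 0.10, adjusted p = 0.000249). *Bcl2l11*, which encodes the death promoter BIM, rose by 1.48 ± 0.10 and *Trp53* by 1.02 ± 0.045. *Casp9*, the initiator caspase of the mitochondrial pathway, fell from 19.6, 17.7 and 22 RPM to 11.7, 10.2 and 11.9 RPM (log2 fold change −0.66 ± 0.092, adjusted p = 0.00166), which was −0.57 and not called with median-of-ratios scaling, and likewise −0.57 with a pseudocount of 1.

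**Figure D3:**
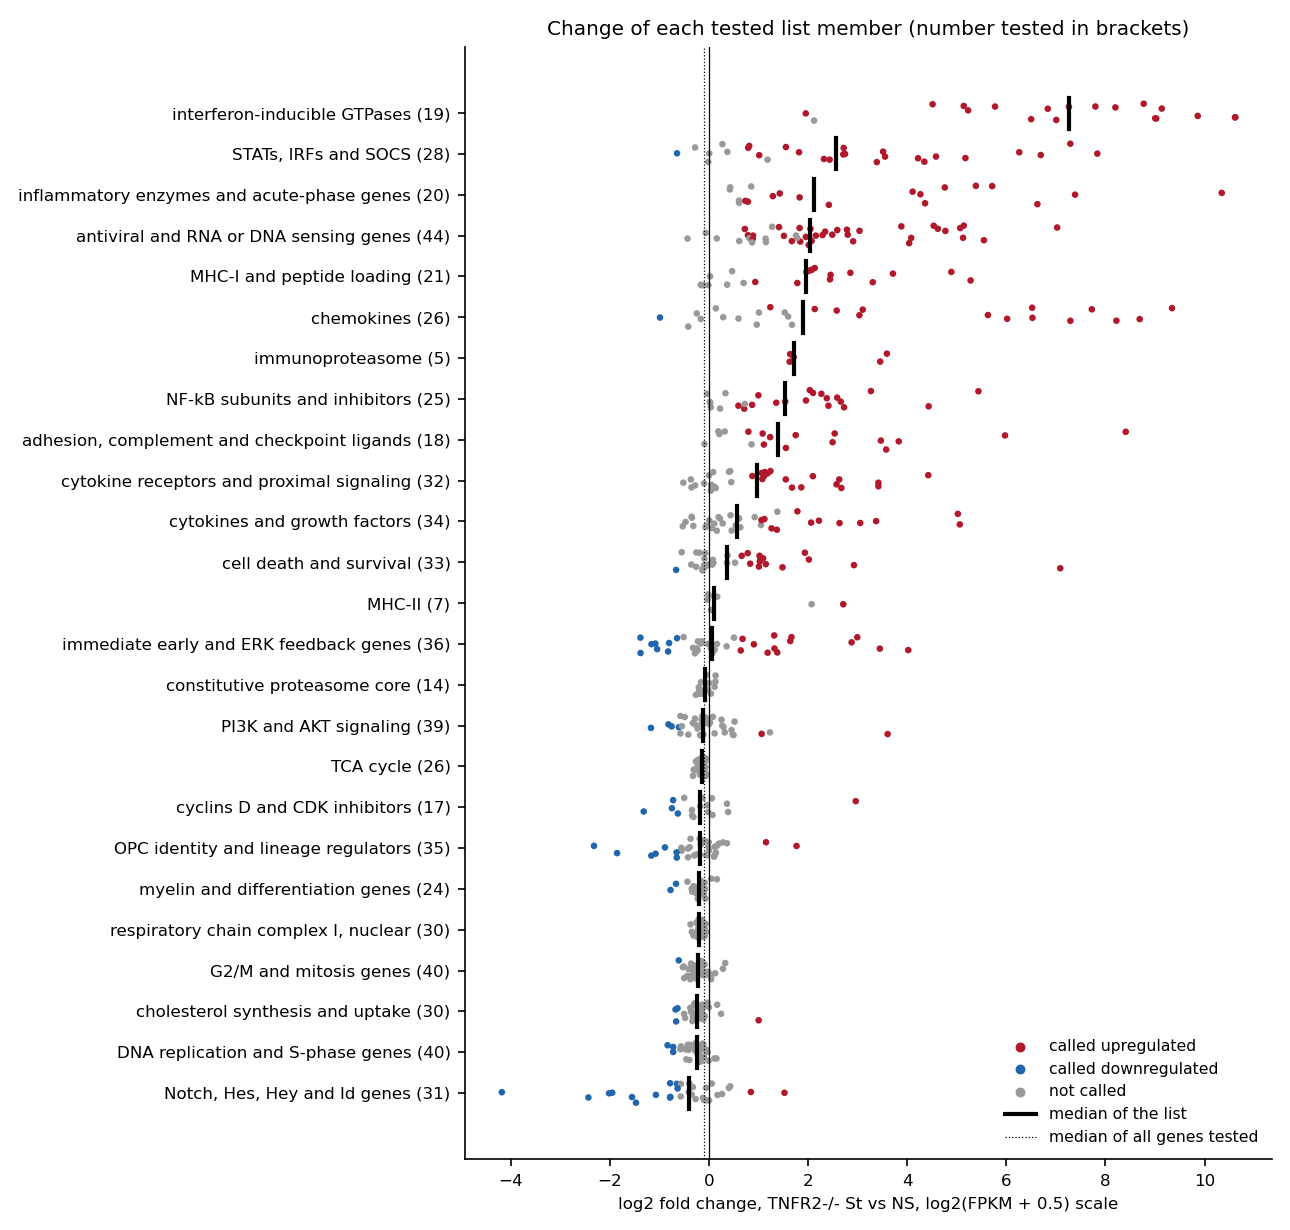
Log2 fold change (St against NS, 3 TNFR2-/- cultures) of each tested member of 25 gene lists, colored by call, with the list median as a thick bar and the median of all genes as a dotted line. Interferon-inducible GTPases had the highest median at 7.26, and respiratory chain, TCA cycle and constitutive proteasome genes lay close to 0.

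Regulators of the OPC lineage went the other way for a minority. Of 35 OPC identity and lineage genes tested, 7 fell (20%, against 5.61% of all genes tested) and 2 rose (5.71%, against 5.82%). Of the 7, 5 did not overlap, while 24.7% of all genes tested were lower without overlap. The list median was −0.19, against −0.11 for all genes. *Olig2*, the factor that specifies the lineage, was at 724, 964 and 829 RPM in NS and 340.3, 391 and 385 RPM in St libraries (log2 fold change −1.16 ± 0.047, adjusted p = 1.10e-05), with all St libraries far below all NS libraries. *Sox8* was at 169, 138 and 271 RPM in NS and 32.8, 34.9 and 41.5 RPM in St libraries (log2 fold change −2.32 ± 0.14, adjusted p = 5.08e-05). *Sox2*, a factor of neural progenitors, fell from 464, 485 and 501 RPM to 221, 249.7 and 211 RPM (log2 fold change −1.08 ± 0.056, adjusted p = 3.01e-05). *Sox11*, a factor of immature neural cells, rose from 181, 203 and 128 RPM to 548, 597 and 569.9 RPM (log2 fold change 1.77 ± 0.11, adjusted p = 6.34e-05), and *Nkx6-2* rose by 1.15 ± 0.26. *Sox10*, active throughout the lineage, was at 228, 219 and 329.6 RPM in NS and 271, 332 and 389 RPM in St libraries and was not called (log2 fold change 0.36 ± 0.11, adjusted p = 0.0315).

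The OPC surface markers *Pdgfra* and *Cspg4* were lower by less than the threshold. *Pdgfra*, the receptor used to isolate the cells, was at 494, 555 and 471 RPM in NS and 362, 394 and 279 RPM in St libraries (log2 fold change −0.56 ± 0.060, adjusted p = 0.000552), and *Cspg4* (NG2) at 343, 422 and 340.3 RPM in NS and 235, 289 and 229 RPM in St libraries (log2 fold change −0.55 ± 0.041, adjusted p = 0.000120). In both genes all St libraries lay below all NS libraries. *Gpr17*, a receptor of committed precursors, was at 420.4, 289.7 and 1204 RPM in NS and 169.9, 205 and 649 RPM in St libraries (log2 fold change −0.89 ± 0.20, adjusted p = 0.0122), so that the cultures differed by more than the treatment, and the call was lost in the fit without the culture pairing (adjusted p = 0.307) and without culture 2 (0.0632) or 5 (0.0546). *Nkx2-2*, at 75.3, 63.0 and 135 RPM in NS and 40.7, 43.7 and 80.5 RPM in St libraries, was called at −0.66, but not with median-of-ratios scaling (−0.55) or without the pairing (adjusted p = 0.114). *Lingo1*, an inhibitor of differentiation, fell from 47.0, 53.9 and 47.7 RPM to 30.3, 34.5 and 29.6 RPM (log2 fold change −0.65 ± 0.045, adjusted p = 9.00e-05), which was −0.53 and not called with median-of-ratios scaling.

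Notch signaling, which holds OPCs undifferentiated, had the largest share of falls among the 25 lists. Of 31 Notch, Hes, Hey and Id genes tested, 12 fell and 2 rose, none of these 14 with overlap, and the list median was −0.40. *Lfng*, a glycosyltransferase that tunes the response of Notch to its ligands, was at 58.6, 50.7 and 84.9 RPM in NS and 5.20, 3.67 and 2.09 RPM in St libraries, the largest fall of any called gene (log2 fold change −4.18 ± 0.33, adjusted p = 0.000160). *Hes1*, the best known Notch target, was at 33.1, 24.8 and 25.5 RPM in NS and 7.49, 4.40 and 3.69 RPM in St libraries (log2 fold change −2.43 ± 0.11, adjusted p = 1.73e-05), and *Hes5* went from 3.59, 1.59 and 9.63 RPM to 0.266, 0.165 and 0.557 RPM (log2 fold change −2.02 ± 0.28, adjusted p = 0.00159). *Nrarp*, a target that feeds back on Notch, was at 1.83, 1.55 and 3.53 RPM in NS and 0.566, 0.331 and 0.209 RPM in St libraries (log2 fold change −1.55 ± 0.26, adjusted p = 0.00372). Of the ligands, *Jag1* went from 31.4, 45.1 and 33.3 RPM to 21.1, 20.8 and 10.1 RPM and *Dll1* from 14.3, 18.0 and 11.1 RPM to 8.13, 9.88 and 6.65 RPM, both lower, while *Jag2* rose from 6.48, 8.52 and 7.45 RPM to 11.1, 18.0 and 16.1 RPM. *Notch1*, the receptor, rose from 107, 89.6 and 103 RPM to 292, 323 and 258 RPM (log2 fold change 1.52 ± 0.11, adjusted p = 0.000118), opposite to its targets, and *Rbpj*, the DNA-binding partner, was at 0.26 and was not called. *Id4*, an inhibitor of differentiation factors, was at 13.6, 14.2 and 33.1 RPM in NS and 4.90, 4.50 and 4.88 RPM in St libraries (log2 fold change −1.95 ± 0.24, adjusted p = 0.000933), and *Id2*, at 281, 309 and 309 RPM in NS and 267, 234 and 349 RPM in St libraries, was not called. *Notch2* (−0.65) and *Hey1* (−0.63) were also called lower, but neither with median-of-ratios scaling (−0.54 and −0.52) nor without the pairing (adjusted p = 0.0645 and 0.0671) nor without culture 5 (−0.54 and −0.32).

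Myelin and differentiation genes were mostly short of the threshold at 3 h. Of 24 tested, 2 were called lower (8.33%, against 5.61% of all genes tested). The list median was −0.20 against −0.11 for all genes. *Mbp*, a structural protein of myelin, was at 253, 357 and 332 RPM in NS and 197, 296 and 254 RPM in St libraries (log2 fold change −0.34 ± 0.039, adjusted p = 0.000732). The NS and St ranges overlapped, although each culture was lower after stimulation. The summed mature oligodendrocyte markers were at 485.3 to 795.8 RPM in NS and 381.0 to 664.4 RPM in St libraries. The called genes make myelin lipids: *Fa2h* was at 16.6, 15.3 and 45.7 RPM in NS and 8.03, 12.1 and 21.9 RPM in St libraries (log2 fold change −0.78 ± 0.15, adjusted p = 0.00711) and *Gal3st1* at 11.2, 9.45 and 25.3 RPM in NS and 5.36, 7.57 and 16.1 RPM in St libraries (log2 fold change −0.67 ± 0.13, adjusted p = 0.00696). Without the culture pairing neither was called (adjusted p = 0.223 and 0.269), and *Gal3st1* was also not called with median-of-ratios scaling (−0.55) or without culture 2 (−0.48).

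Few cell cycle genes were called. Of 40 G2/M genes 1 (2.5%, against 5.61% of all genes tested) was called lower, *Cdc25b*, from 20.1, 17.8 and 13.5 RPM to 14, 10.2 and 5.78 RPM, and the list median was −0.22. Small falls were common, with 35 of the 40 lower and 5 higher. At an unadjusted limma p under 0.05, 28 were lower and 2 higher, while 37% of all genes tested were lower. The *Cdc25b* change came under 1.5-fold with median-of-ratios scaling (−0.52), with a pseudocount of 1 (−0.48) and without culture 5 (−0.51). *Top2a* was at 274, 211 and 149 RPM in NS and 333, 265 and 193 RPM in St libraries and lay above its NS level in each culture (log2 fold change 0.33 ± 0.033, adjusted p = 0.000419), and *Mki67* was at 198, 153 and 112 RPM in NS and 179.9, 175 and 103 RPM in St libraries. Of 40 replication and S-phase genes, 38 were lower and 2 higher, with a list median of −0.25. At an unadjusted limma p under 0.05, 33 were lower and 0 higher. With median-of-ratios scaling the G2/M and S-phase medians were −0.10 and −0.14, against −0.02 for all genes. Of the S-phase genes, 3 (7.5%) were called and fell without overlap. These were *Cdc6* (log2 fold change −0.84 ± 0.053, adjusted p = 6.43e-05) and *Cdt1* (log2 fold change −0.72 ± 0.067, adjusted p = 0.000310), which license replication origins, and the cyclin *Ccne1* (log2 fold change −0.72 ± 0.071, adjusted p = 0.000377). In the list of D cyclins and CDK inhibitors 23.5% fell and 5.88% rose, against 5.61% and 5.82% of all genes tested, with a list median of −0.18. *Ccnd1* went from 2186, 2236 and 1647 RPM to 1380.0, 1503 and 1049 RPM and *Ccnd3* from 145, 168 and 126 RPM to 90.0, 92.5 and 77.3 RPM. The inhibitor *Cdkn1b* (p27) went from 139.8, 132 and 116 RPM to 83.2, 81.5 and 68.8 RPM. The *Ccnd1* change of −0.63 became −0.51 and was not called with median-of-ratios scaling. *Cdk6*, a partner of the D cyclins, rose from 21.8, 16.6 and 17.8 RPM to 172, 139 and 163 RPM (log2 fold change 2.96 ± 0.069, adjusted p = 1.70e-06). *Mycn* fell from 9.47, 14 and 4.19 RPM to 4.0, 3.40 and 2.58 RPM (log2 fold change −1.32 ± 0.22, adjusted p = 0.00354). With 1 higher and 4 lower, these made up the called members among 17 genes of this list.

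**Figure D4:**
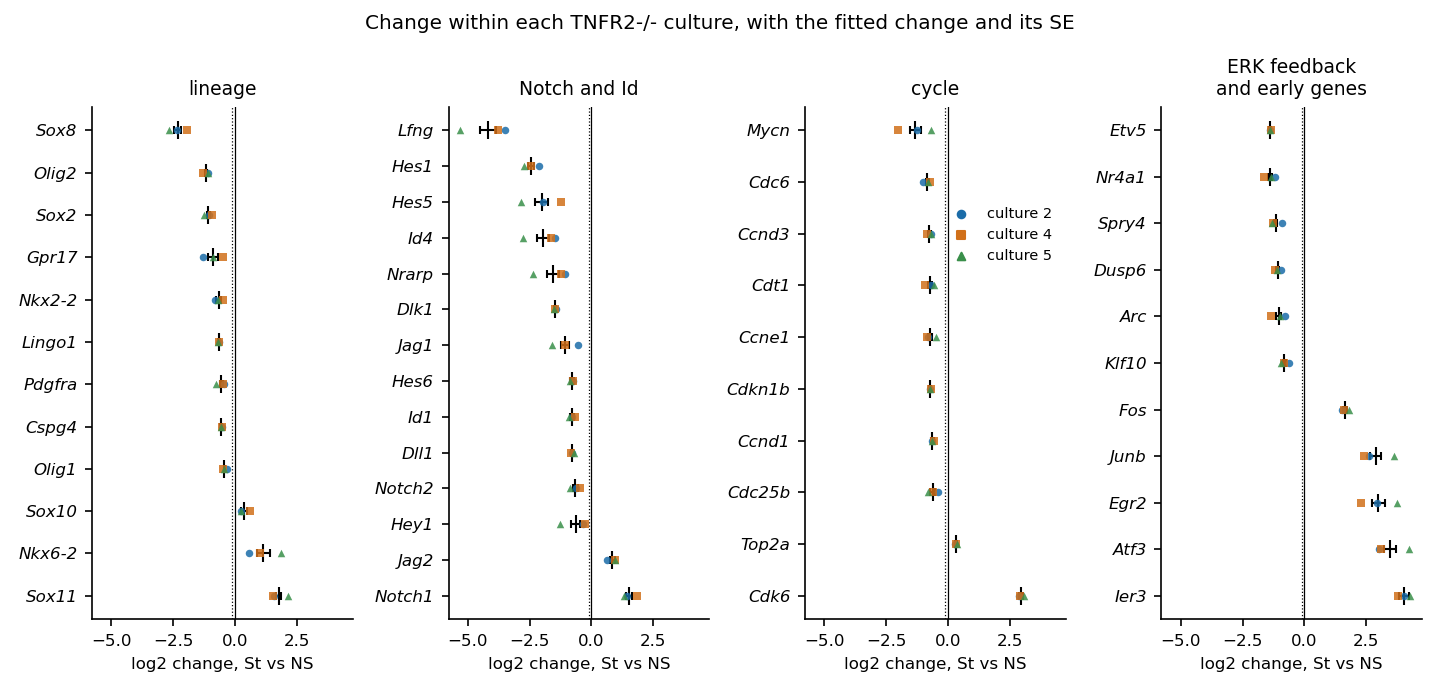
Log2 change (St against NS) of lineage, Notch and Id, cell cycle and early response genes in each TNFR2-/- culture (colored points), with the fitted change (black line) and its SE (bar), 0 as a solid and the median of all genes as a dotted line. The cultures lay closest for genes such as *Etv5* and *Dlk1*, and *Lfng* spread most, with culture 5 lowest.

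Immediate early genes and feedback inhibitors of ERK were split, with 13 of 36 higher and 8 lower, 12 and 7 of them without overlap. Among those higher, *Junb* was at 34.6, 42.2 and 19.4 RPM in NS and 210.1, 228 and 241 RPM in St libraries (log2 fold change 2.88 ± 0.21, adjusted p = 0.000117), *Atf3* went from 12, 10.7 and 6.49 RPM to 119, 115 and 177 RPM (log2 fold change 3.45 ± 0.24, adjusted p = 8.92e-05) and *Fos* from 27.4, 33.7 and 18.8 RPM to 79.3, 102 and 64.7 RPM (log2 fold change 1.64 ± 0.076, adjusted p = 1.87e-05). *Ier3* rose from 9.04, 10.5 and 6.43 RPM to 157, 152 and 137 RPM (log2 fold change 4.02 ± 0.19, adjusted p = 1.95e-05) and *Egr2* by 2.99 ± 0.26, whereas *Egr1* was at 132, 178 and 119 RPM in NS and 139, 155 and 139.8 RPM in St libraries and was not called. Among those lower, the phosphatase *Dusp6* was at 274, 294 and 268 RPM in NS and 141, 129.9 and 124 RPM in St libraries (log2 fold change −1.08 ± 0.051, adjusted p = 1.95e-05), the inhibitor *Spry4* at 221, 315 and 163 RPM in NS and 116, 131 and 66.2 RPM in St libraries (log2 fold change −1.16 ± 0.073, adjusted p = 6.24e-05) and the ETS factor *Etv5* at 172, 178 and 209 RPM in NS and 64.5, 70.0 and 78.7 RPM in St libraries (log2 fold change −1.38 ± 0.037, adjusted p = 2.68e-06). *Nr4a1* and *Arc*, which respond to activity, fell by 1.38 and 1.05 on the log2 scale. *Klf10* fell by 0.81 on the log2 scale, but its adjusted p was 0.0637 without the culture pairing.

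Growth factor and PI3K signaling genes were called in 6 of 39 cases. Of the 39, 2 were higher (5.13%, against 5.82% of all genes tested) and 4 lower (10.3%, against 5.61%). The list median was −0.12, against −0.11 for all genes. *Pik3cd*, the catalytic subunit p110δ, was at 1.10, 1.12 and 0.923 RPM in NS and 17.5, 16.4 and 17.0 RPM in St libraries (log2 fold change 3.60 ± 0.074, adjusted p = 1.33e-06), and *Pik3ip1*, an inhibitor of the kinase, rose from 11.5, 11.2 and 16.3 RPM to 21.8, 23 and 38.9 RPM (log2 fold change 1.06 ± 0.12, adjusted p = 0.000635). *Fgfr3*, a receptor for FGF ligands, fell from 134, 103 and 151 RPM to 54.1, 49.9 and 65.5 RPM (log2 fold change −1.17 ± 0.065, adjusted p = 3.86e-05), and *Irs1*, an adaptor of the insulin and IGF1 receptors, from 17.9, 16.5 and 14.2 RPM to 9.19, 11.5 and 5.78 RPM (log2 fold change −0.82 ± 0.13, adjusted p = 0.00336). *Erbb3*, at −0.75, was not called without the pairing (adjusted p = 0.0946), and *Pik3cb*, at −0.61, not with median-of-ratios scaling (−0.49) or quantile normalization (−0.57).

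In cholesterol synthesis and uptake, 1 of 30 genes rose (3.33%, against 5.82% of all genes tested) and 3 fell (10%, against 5.61%). The list median was −0.24. *Hsd17b7*, an enzyme of the late pathway, rose from 124, 117 and 108 RPM to 222, 208 and 279.8 RPM (log2 fold change 1.0 ± 0.10, adjusted p = 0.000507). The genes called lower were *Srebf1* (−0.66), *Mvk* (−0.68) and *Mylip* (−0.64), and none of these was called with median-of-ratios scaling. *Srebf1* was also not called without the pairing (adjusted p = 0.0621), nor *Mylip* without culture 4 (0.0549) or 5 (0.0937). No gene of the 30 of respiratory chain complex I or the 26 of the TCA cycle was called by limma or by voom on recovered reads. At an unadjusted p under 0.05, 26 of the 30 and 21 of the 26 were lower, a larger share than the 37% of all genes tested. Their changes ran from −0.37 to −0.06 and from −0.32 to −0.06, with medians of −0.20 and −0.15, against −0.11 for all genes. With median-of-ratios scaling the medians were −0.09 and −0.03, against −0.02.

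The 10 largest rises were *Ifi47*, *Gm4841*, *Serpina3f*, *Tgtp2*, *Cxcl10*, *Gm4951*, *Gbp2b*, *Iigp1*, *Gm12185* and *BC023105*, from 10.62 to 8.87. Of these, 6 were on the list of interferon-inducible GTPases, and the last 2 were on no list, with *Gm12185* at 0, 0.231 and 0.0989 RPM in NS and 77.4, 89.7 and 156 RPM in St libraries and *BC023105* at 0, 0.231 and 0.0989 RPM in NS and 82.9, 77.0 and 204 RPM in St libraries. The 10 largest falls ran from −4.18 for *Lfng* to −2.32 for *Gsx1*, a homeobox factor of ventral progenitors, at 23.5, 29.1 and 19.2 RPM in NS and 6.26, 7.34 and 2.23 RPM in St libraries. Besides *Hes1*, the others were *Pyy* (−2.98), a gut and neuronal peptide, *Gpr12* (−2.77), an orphan receptor, and *Fam65b*, *Fam181a*, *Fam101a*, *Pdzd3* and *2810459M11Rik*, at −2.83 to −2.45. *Fam65b* went from 15.9, 7.07 and 10.1 RPM to 2.70, 1.16 and 0.941 RPM, and *Pdzd3* and *Gpr12* were under 1.3 RPM in all libraries.

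The WT libraries were used to ask whether the response differed with the labelled genotype. In WT OPCs 926 genes rose (5.12%) and 661 fell (3.66%). Levels in the TNFR2-/- libraries set which genes were tested and which passed 1 FPKM, for WT and interaction calls too. Genes low in TNFR2-/- libraries could therefore not be called in WT OPCs, and the counts and shares below hold within this limit. Of the genes that rose in TNFR2-/- OPCs, 820 also rose in WT OPCs, which were 77.9% of the TNFR2-/- and 88.6% of the WT calls. Of those that fell, 537 were shared, 53.0% of the TNFR2-/- and 81.2% of the WT calls, and no gene was called in opposite directions. The 233 higher and 477 lower genes called in TNFR2-/- OPCs alone were not thereby different between genotypes. Over all genes called in TNFR2-/- OPCs, the WT change had the same sign for 1042 of 1053 and 990 of 1014 genes. These counts include the 820 and 537 genes called in both genotypes, where the sign had to match. The difference of responses itself was tested as an interaction, at an adjusted p of at most 0.05 for 1 gene (0.00553% of genes tested), while 3846 genes (21.3%) had an unadjusted p under 0.05. With voom on recovered reads 144 genes were called in this test, and with a pseudocount of 0.1 none was.

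That gene was *Gbp2b* (ENSMUSG00000040264, chromosome 3, 142594847 to 142619179, GRCm38), a guanylate-binding protein gene. It was at 0.698, 0.429 and 1.71 RPM in NS and 1982, 1626 and 2309 RPM in St libraries of TNFR2-/- OPCs, and at 0.0333, 0 and 0.0667 RPM in NS and 1.23, 9.29 and 5.98 RPM in St libraries of WT OPCs. The responses of 9.02 and 1.40 differed by 7.63 ± 0.38 (adjusted p = 0.00883), and the St libraries of the 2 genotypes were far apart. Its neighbor *Gbp2* was at 1165, 1201 and 1126 RPM in TNFR2-/- and 2792, 2780.4 and 2418 RPM in WT St libraries, and its responses of 7.26 and 9.22 differed by −1.96 ± 0.32 (adjusted p = 0.0978), which was not called. These genes share sequence, and whether reads or alleles were exchanged between them was not tested.

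For 5 further genes described above, chosen after their values were seen, limma called no difference between genotypes. The change was 6.69 in TNFR2-/- and 7.28 in WT OPCs for *Irf1*, 3.27 and 2.70 for *Nfkbia*, 9.34 and 10.20 for *Cxcl10*, −1.16 and −1.23 for *Olig2* and −2.43 and −1.95 for *Hes1*. *Tnfrsf1b* itself rose in WT OPCs by 1.17, against 0.11 in libraries labelled TNFR2-/-, with a difference of −1.06 ± 0.25 (adjusted p = 0.111). *Egr1* fell in WT OPCs by 0.87 on the log2 scale against 0.04 in TNFR2-/- OPCs, a difference of 0.90 ± 0.16 (adjusted p = 0.0978). Neither difference was called.

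**Figure D5:**
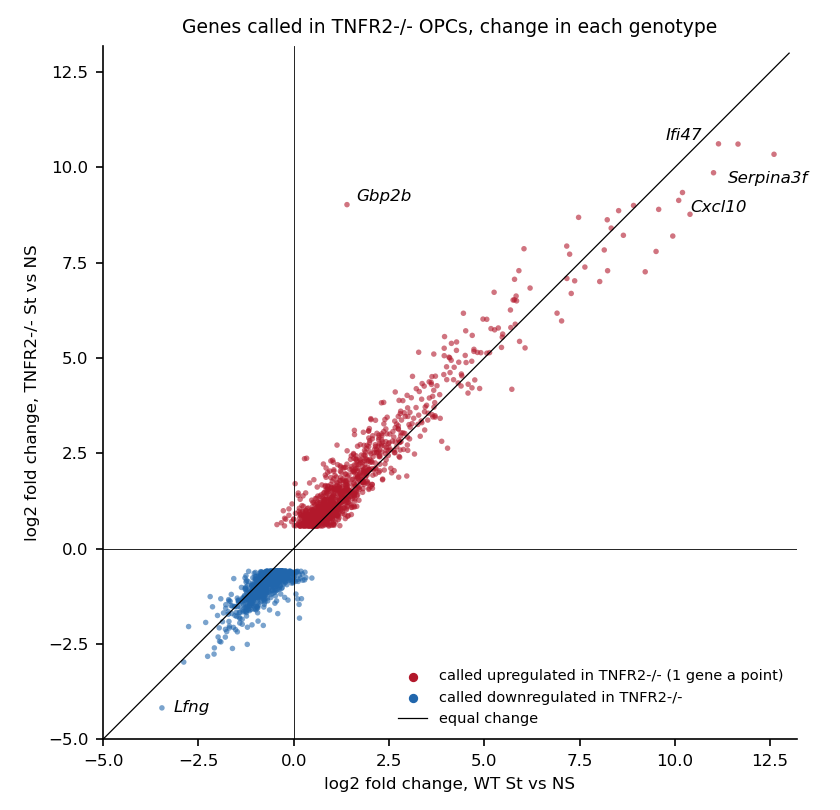
Log2 fold change (St against NS) in WT and TNFR2-/- OPCs (horizontal against vertical axis) for genes called in TNFR2-/- OPCs, 1 point a gene, with the line of equal change. *Gbp2b* lies far above the line, at 9.02 in TNFR2-/- and 1.40 in WT OPCs.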

How the data were processed

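Cortical OPCs were sequenced as paired reads, on a BGISEQ-500 by the methods and by Illumina protocols per the labels. The authors trimmed reads with Trim Galore, counted read pairs with STAR on GRCm38 with the Ensembl annotation, and deposited FPKM per gene, for NS and St libraries separately, from which all columns were used. Of 45792 entries, 229 with shared symbols were left out. Whole read pairs were recovered from the FPKM of all 26636 genes above 0 in at least 2 libraries (100%, tolerance 1e-04) and gave RPM. The FPKM divisor did not follow exon length (Spearman 0.00974 over 16010 genes, a description across genes). RPM of 1 gene between libraries does not depend on this divisor. The filter and the FPKM threshold for a call do, and through the pseudocount so do the changes and p-values of genes with low FPKM. For *Nos2* the log2 fold change was 4.36 in the main fit, 6.46 with a pseudocount of 0.1 and 3.46 with 1. Strand was not stated, so overlapping antisense genes cannot be told apart.

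Log2(FPKM + 0.5) was fitted in limma 3.58.1 (R 4.3.3) over 12 libraries with a term per culture, a stimulation term per genotype and trended moderation. The same-number NS and St libraries deviated together (r 0.338 to 0.649, against −0.455 to 0.0880 for other pairs), so culture numbers pair the samples. Named genes were list and marker members, the 10 largest rises and falls of the same sign in all 3 cultures, and called interactions. Members and lists were chosen with earlier results of these data known. Some list members are counted but not reported by name here. Ratios of genes with 1 to 3 NS reads have exact 95% intervals, and intervals and floors cover counting error only. Promoters came from RefSeq (GRCm38.p6), of which 27025 had a start. The fit was tested on simulated data. Alternatives covered the pairing, pseudocount, filters, scaling, weights, voom, thresholds and each culture left out with both its NS and St library. Python 3.11.15, numpy 2.4.6, pandas 2.3.3, scipy 1.17.1 and matplotlib 3.10.9 were used.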

Additional observations from a re-analysis of the deposited data

Results flagged for a closer look

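The response of *Gbp2b* differed between genotypes by a test of the difference itself, at 7.63 ± 0.38 on the log2 scale (adjusted p = 0.00883, limma with Benjamini-Hochberg adjustment over 18084 genes). All 3 St libraries labelled TNFR2-/- lay at 1626 to 2309 RPM and all 3 WT St libraries at 1.23 to 9.29 RPM. The call was lost with a pseudocount of 0.1, without replicate 2, 4 or 5 labelled TNFR2-/- and without WT replicate 4. Its cause was not tested.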

How the results depend on the processing

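The numbers of genes called in TNFR2-/- OPCs stayed within 1.5 times the reported 1053 higher and 1014 lower, in every alternative run except where the fold threshold was changed: 2079 rose and 5449 fell with none, and 687 rose and 281 fell at 2-fold. Median-of-ratios scaling gave 1232 and 690 and quantile normalization 1090 and 925. A pseudocount of 0.1 gave 1080 and 1125, and 1 gave 1015 and 913. No filter on low values gave 1028 and 968, a mean of at least 1 FPKM 1058 and 1028, and 2 RPM for a call 925 and 865. The TNFR2-/- libraries alone gave 1037 and 987, voom on recovered reads 1081 and 1161, no trend 1046 and 999, and array weights 1051 and 1010. Leaving out a TNFR2-/- replicate gave 994 to 1095 higher and 908 to 1082 lower, and a WT replicate 1048 to 1052 and 1009 to 1016. Without the replicate block that pairs the cultures, 988 rose and 854 fell. Of the genes named in the report, that fit ended the calls noted there. Beyond what is noted there, the change of *Stmn2* was 0.50 with a pseudocount of 1, and *Hey1* was not called with TNFR2-/- libraries alone (adjusted p = 0.0906), with no filter (0.0713), or without WT replicate 2 (0.0531) or 4 (0.0546).

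The interaction was called for 1 gene, and for 144 with voom on recovered reads and 0 with a pseudocount of 0.1. It was called for 0 to 1 genes when a replicate was left out, with 0 without TNFR2-/- replicate 2, 4 or 5 or WT replicate 4. The other alternatives that hold WT libraries gave 1 gene. The cause was not tested.

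For the genes named in the report, 3047 values kept their direction and their side of an adjusted p of 0.05, 51 values of 23 genes kept their direction and rose above 0.05, and 3 values passed below it. Direction turned for 18 values of 11 genes, none of them called. With median-of-ratios scaling *Calr* was at 0.0078, *Canx* at 0.11, *Chuk* at 0.076, *Id2* at 0.019, *Mki67* at 0.099 and *Tlr4* at 0.0037, and with quantile normalization *Chuk* was at 0.0025. With a replicate left out, *Tnfrsf1b* ran from −0.062 without TNFR2-/- replicate 5 to 0.24, *Egr1* from −0.060 to 0.16, *Canx* from −0.031 to 0.0025, *Id2* from −0.24 to 0.050, *Map3k7* from −0.026 to 0.040, *Mki67* from −0.13 to 0.040, *P2ry12* from −0.26 to 0.041, *Tlr4* from −0.15 to 0.022 and *Tyk2* from −0.046 to 0.076.

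Depth limits the genes near 0 in NS libraries, where a few reads set the level and the pseudocount sets the fold. In culture 5 astrocyte markers were higher, and their part in its larger rises was not tested. NS and St values were deposited in separate tables, so a processing difference between them cannot be told apart from stimulation.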

Other observations

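Neighboring genes rose together at several loci, a description made after the values were seen and without a test. A run is a stretch of at least 4 tested protein-coding genes, next to each other among those tested, that were all called higher, with positions on GRCm38. On chromosome 11, from 48826140 to 49114874, 12 genes in a row rose by 1.08 to 10.62 on the log2 scale, among them the interferon-inducible GTPase genes *Irgm1*, *Tgtp1*, *Tgtp2* and *Ifi47*, beside *Trim7* and the odorant receptor genes *Olfr56* and *Olfr1396*. Gene models overlap there and copies share sequence, so that reads may have been split or counted for a neighbor. On chromosome 3, from 142493978 to 142638008, *Gbp5*, *Gbp7*, *Gbp3*, *Gbp2b* and *Gbp2* rose by 5.14 to 9.02.

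Other runs held genes with shared roles in antigen presentation and defense. *Psmb9*, *Tap1*, *Psmb8* and *Tap2* lie side by side on chromosome 17, from 34181987 to 34216321, and rose by 3.45 to 5.28. *Slfn5*, *Slfn9*, *Slfn8* and *Slfn2* of the Schlafen family and their neighbor *Unc45b* rose by 1.94 to 6.72 on chromosome 11, from 82910550 to 83070678. *Ifit2*, *Ifit3*, *Ifit3b* and *Ifit1*, which bind foreign RNA, rose by 0.79 to 4.62 on chromosome 19, from 34550694 to 34650009, and *Trim12a*, *Trim12c*, *Trim30a* and *Trim30d* by 1.93 to 3.14 on chromosome 7, from 104299894 to 104507849. On chromosome 15, from 6813577 to 7837575, the run of *Osmr*, *Lifr*, *Egflam* and *Gdnf* held receptor genes beside a matrix protein and a neurotrophic factor, at 0.91 to 3.42. Runs of genes that fell were short and shallow, with *Tmem218*, *Slc37a2*, *Ccdc15* and *Hepacam* at −0.72 to −0.61 on chromosome 9, from 37208223 to 37386575.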
